A study of Mus musculus with 8 samples.

Results

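Oxidative phosphorylation subunits are the proteins that build complexes I to V of the mitochondrial inner membrane, and their nuclear genes were followed here in lymph node dendritic cells (DCs). The genes were taken by symbol from the deposited table: all rows named Ndufa, Ndufab, Ndufb, Ndufc, Ndufs or Ndufv with a number, Sdha to Sdhd, Uqcr, Cyc1, Cox4 to Cox8 and Atp5. This gave 79 of 10412 genes: 36 of complex I, 4 of complex II, 9 of complex III, 13 of complex IV and 17 of complex V. A low-count filter left 75 of them among 8616 tested genes, and Atp5g2, Atp5l, Cox4i2 and Cox6b2 were not tested.

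Bulk MARS-seq was used, in which the 3′ end of each captured RNA molecule is sequenced with a unique molecular identifier (UMI). Cells positive for the sort markers CD45, CD11c and MHC-II were taken from popliteal lymph nodes of C57BL/6 chimeras aged 16 weeks, 8 weeks after transplant. Activated cells came from mice given 10 µg of anti-CD40 monoclonal antibody into the footpad, and resting cells from untreated mice. There were 2 libraries in each of 4 groups: ICAM-1/2 DKO/WT chimeras activated, WT/WT chimeras activated, ICAM-1/2 DKO/WT chimeras resting and WT/WT chimeras resting, called DKO activated, WT activated, DKO resting and WT resting. ICAM-1 and ICAM-2 are adhesion molecules, and in such chimeras cells of the host may remain beside those of the donor. The labels do not say which of the genotypes in DKO/WT is that of the donor and which that of the host, and DKO below stands for the whole name. The labels do not say whether libraries of a group are from different animals; the spread behind each p-value is that between these libraries and may be technical.

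The libraries held 401984 to 1294777 UMIs each. Both of lowest depth were DKO libraries, resting replicate 1 with 401984 UMIs and activated replicate 2 with 471235 UMIs. Levels are given as CPM, UMIs per 1e+06 UMIs of the library after scaling by the trimmed mean of M values (TMM). Icam1 was lower in DKO libraries, at 38.2 and 35.5 CPM in DKO activated against 403 and 428 CPM in WT activated libraries, and 9.40 and 13.5 CPM in DKO resting against 166 and 122 CPM in WT resting libraries (log2 fold change DKO over WT −3.53 ± 0.25, edgeR quasi-likelihood test, Benjamini-Hochberg adjusted p = 3.00e-13). Icam2 had 109 and 92.2 CPM in DKO activated against 65.9 and 93.4 CPM in WT activated libraries, and 228 and 134 CPM in DKO resting against 197 and 217 CPM in WT resting libraries (log2 fold change 0.06 ± 0.19, adjusted p = 0.995 in the same edgeR test). The labels do not say where the deletions lie relative to the counted 3′ ends, so Icam2 gives no check of the label.

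In the respiratory chain, complex I takes electrons from NADH and complex II takes them from succinate, and both pass them to ubiquinone. Complex III carries them on to cytochrome c and complex IV to oxygen, and the protons pumped on the way drive ATP synthase, also called complex V. Most subunits are encoded in the nucleus, but complexes I, III, IV and V each also hold subunits encoded by mitochondrial DNA. Activated DCs are known for a shift of their metabolism towards glycolysis, studied mostly in cells cultured with Toll-like receptor ligands. The 13 mitochondrially encoded subunits were not analysed here, so every value below concerns nuclear genes.

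The promoters of 4 genes are shown because the results turn on them: complex II subunits, of which Sdhb and Sdhd rose and Sdha did not pass the test, and the only gene that fell (Atp5sl). Each window runs from 250 bases before to 50 bases after the RefSeq transcription start, 5′ to 3′ on the gene's strand, in build GRCm38.p6. Capitals mark matches on either strand to 3 motifs known from promoters of respiratory genes: GCGC then any base then TGCGC for NRF1, CCGGAAG for ETS factors such as GABP, and AAGATGGCG for YY1. Sdha lies at chr13:74350191-74350490 on the minus strand and holds 3 NRF1 motifs. Sdhb lies at chr4:140961021-140961320 on the plus strand and holds 1 ETS motif. Sdhd lies at chr9:50603800-50604099 on the minus strand and holds 1 NRF1 and 1 ETS motif. For Atp5sl, which RefSeq names Dmac2, the later of its 2 windows is shown, at chr7:25619243-25619542 on the plus strand, with 1 YY1 motif.
Sdha: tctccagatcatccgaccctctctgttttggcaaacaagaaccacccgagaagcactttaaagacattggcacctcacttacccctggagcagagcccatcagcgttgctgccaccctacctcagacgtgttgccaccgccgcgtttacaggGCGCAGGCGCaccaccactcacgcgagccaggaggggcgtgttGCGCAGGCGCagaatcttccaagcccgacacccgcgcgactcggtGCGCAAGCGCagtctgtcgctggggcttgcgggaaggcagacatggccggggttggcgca
Sdhb: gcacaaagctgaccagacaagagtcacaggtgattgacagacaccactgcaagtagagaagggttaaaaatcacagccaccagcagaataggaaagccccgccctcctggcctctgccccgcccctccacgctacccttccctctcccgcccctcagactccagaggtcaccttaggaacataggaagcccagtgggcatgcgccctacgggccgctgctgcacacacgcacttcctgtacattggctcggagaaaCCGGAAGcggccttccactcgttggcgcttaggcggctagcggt
Sdhd: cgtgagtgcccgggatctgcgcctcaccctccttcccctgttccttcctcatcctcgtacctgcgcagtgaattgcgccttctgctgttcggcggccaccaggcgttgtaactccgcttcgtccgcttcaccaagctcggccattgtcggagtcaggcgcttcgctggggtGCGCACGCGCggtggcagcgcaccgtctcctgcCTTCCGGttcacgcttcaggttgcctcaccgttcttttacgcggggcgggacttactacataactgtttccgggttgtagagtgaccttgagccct
Atp5sl: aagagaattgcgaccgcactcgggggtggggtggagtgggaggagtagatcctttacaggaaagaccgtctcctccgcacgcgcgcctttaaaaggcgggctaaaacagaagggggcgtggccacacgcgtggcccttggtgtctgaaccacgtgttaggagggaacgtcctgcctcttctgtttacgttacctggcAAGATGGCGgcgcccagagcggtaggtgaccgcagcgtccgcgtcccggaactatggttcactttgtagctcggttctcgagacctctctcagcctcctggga

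RefSeq windows were found for 66 of the 79 genes, 72 windows in all once chromosome 18 was left out. The NRF1 motif was in 17 of these 72 windows (23.6%), against 11.1% of 8445 windows of other tested genes and 4.6% of all 32851 windows. The ETS motif was in 16 windows (22.2%, against 20.4% and 8.86%), and the YY1 motif in 9 (12.5%, against 3.68% and 1.4%). At least 1 of the 3 motifs was in 36 windows (50%, against 31.5% and 13.6%), and no matches of different motifs overlapped. The median log2 fold change with activation, defined below, was 0.63 for the 15 tested genes with an NRF1 motif and 0.65 for the 48 without. It was 0.66 for the 15 with and 0.61 for the 48 without an ETS motif, and 0.71 for the 8 with and 0.63 for the 55 without a YY1 motif. A match describes these letters only and shows no binding. The NRF1 motif stood both in the window of Sdhd, which rose, and in that of Sdha, which did not pass the test.

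Activation was first compared as the mean of the change, activated over resting, in DKO and in WT chimeras; log2 fold changes are given ± SE. Transcripts of the subunits were higher in activated than in resting DCs: 56 of 75 tested genes rose, 1 fell (Atp5sl) and 18 did not pass the test (edgeR quasi-likelihood test, Benjamini-Hochberg adjusted p under 0.05). Over all tested genes 16.3% were called higher and 13.4% lower. The median log2 fold change of the 75 genes was 0.63, against −0.01 over all tested genes and 0.16 over 785 other genes in the interquartile range of the subunits' mean level (165 to 446 CPM), of which 33.6% were called higher. In 54 of the 75 tested subunits all 4 activated libraries lay above all 4 resting ones, in 1 all lay below and in 20 the groups overlapped. Over all tested genes the shares above and below were 15% and 13%.

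Summed over the 79 genes, the level was 27220 and 33712 CPM in DKO activated and 30126 and 31210 CPM in WT activated libraries, against 20973 and 19139 CPM in DKO resting and 19091 and 21060 CPM in WT resting libraries. The lowest activated library was above the highest resting one, and the sum was 1.52-fold higher with activation in DKO and 1.53-fold higher in WT chimeras. Of all UMIs, these genes took 2.66% and 3.03% in DKO activated, 2.84% and 2.81% in WT activated, 2.22% and 2.05% in DKO resting and 2.12% and 2.24% in WT resting libraries. Fewer cells of a type and less RNA per cell cannot be told apart in such bulk samples. Scaling by library totals alone moved the median of all tested genes to −0.22 and that of the subunits to 0.42. The distance between these medians was then 0.65, against 0.64 with TMM scaling. With library totals alone 41 of the 75 tested subunits rose, where 10.5% of all tested genes were called higher. Under library totals 32.5% of all called genes were higher ones, against 54.9% with TMM.

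**Figure D1:**
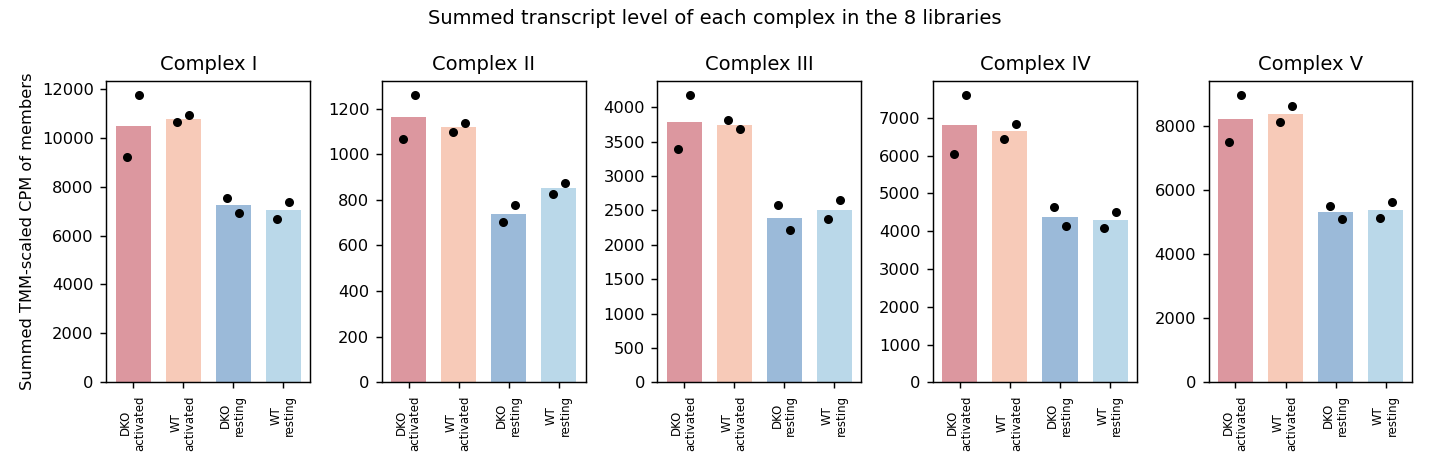
Summed TMM-scaled CPM of the members of each complex (vertical axis, from 0) in the 4 groups; points are libraries and bars are means of 2 libraries. In every complex each activated library lies above each resting library, as for complex I with 9217 to 11725 CPM against 6677 to 7542 CPM.

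Marker lists for other cells, and lists for proliferation and for immediate early and handling stress, were read in the same test. Some of them were mostly higher and others mostly lower in activated libraries. All 15 tested monocyte and macrophage markers were higher (17 of 20 listed were in the table; Mertk, Cd14 and Cd163 were not analysed here). Their summed level was 12650 and 16369 CPM in DKO activated, 6491 and 5692 CPM in WT activated, 3200 and 3234 CPM in DKO resting and 2744 and 2441 CPM in WT resting libraries. That sum was higher in both DKO activated than in both WT activated libraries, in which the summed subunits had 27220 to 33712 CPM and 30126 to 31210 CPM. Of 19 tested proliferation genes 15 were higher, with sums of 1885 and 2362, 2061 and 1727, 935 and 854, and 1094 and 803 CPM in DKO activated, WT activated, DKO resting and WT resting libraries. Of 15 B cell markers 3 were higher and 9 lower, with sums of 8502 to 10014 CPM in activated and 11168 to 13608 CPM in resting libraries. Of 17 T cell markers 1 was higher and 7 lower. Their sums were 1788 and 2194 CPM in DKO activated against 2571 and 1788 CPM in DKO resting libraries, which overlapped. In WT chimeras the sums were 1472 and 2386 CPM activated against 3030 and 3479 CPM resting, without overlap. Tested in each genotype alone, 2 T cell markers were higher and 1 lower in DKO, and 0 higher and 9 lower in WT chimeras. Of 13 immediate early and handling stress genes 12 were lower (811 to 964 CPM activated, 1784 to 3268 CPM resting).

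Classical DC markers were at 40907 to 49228 CPM in sum in all libraries, with 3 of 16 higher and 3 lower. This list includes MHC class II genes, and its sum does not measure the share of DCs in a library. Of 11 natural killer and innate lymphoid markers 3 were higher (299 to 724 CPM activated, 317 to 388 CPM resting), and of 6 plasma cell markers 2 were higher and 2 lower (489 to 730 CPM activated, 559 to 786 CPM resting). A single granulocyte marker was tested and was higher (list sums 10.9 to 132 CPM activated, 11.1 to 22.5 CPM resting), and the 1 stromal or endothelial marker tested was lower (59.4 to 102 CPM activated, 110 to 172 CPM resting). Erythrocyte and platelet markers had 1 gene in the table, untested, at no more than 8.91 CPM. The part of other cells, proliferation or handling stress in the rise of the subunits was not tested.

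Among the genes described below, Atp5g2, Atp5k, Atp5l, Atp5o, Cox6a1, Cox7c and Ndufs3 have annotated pseudogene copies of their 3′ ends, and the 3′ ends of Cox5a, Cox6c, Ndufa2, Ndufa3, Ndufb2 and Uqcrc2 overlap an exon on the other strand. For Atp5g1, the end of the transcript searched, which is 4715 bases long, matches transcripts of the protein-coding genes Bclaf1 and Pdzd2. Other transcript ends of Atp5g1 were not searched, and whether this end is the counted one was not checked. Counts of these genes may include reads of the copy or the partner.

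Complex I, the NADH dehydrogenase, had 26 of 36 genes higher, none lower, and a median log2 fold change of 0.62. Ndufb2, an accessory subunit of the membrane arm, had 201 and 179.7 CPM in DKO activated and 205 and 203 CPM in WT activated libraries, against 113 and 103 CPM in DKO resting and 75.7 and 102 CPM in WT resting libraries. Its activated libraries all lay above its resting ones (log2 fold change 1.03 ± 0.17, adjusted p = 1.85e-05, edgeR). Ndufa10, another accessory subunit, had 305 and 414 CPM in DKO activated and 350.1 and 415 CPM in WT activated libraries, against 235 and 156 CPM in DKO resting and 175 and 204 CPM in WT resting libraries (log2 fold change 0.96 ± 0.16, adjusted p = 2.53e-05, edgeR). For Ndufa3, also accessory, the values were 582 and 667 CPM in DKO activated and 792 and 686 CPM in WT activated libraries, against 430.0 and 368 CPM in DKO resting and 397 and 415 CPM in WT resting libraries (log2 fold change 0.76 ± 0.13, adjusted p = 5.73e-05, edgeR). In neither gene did the activated and resting libraries overlap. Ndufa13, the complex I gene with the highest mean level, had 699 and 950.5 CPM in DKO activated and 733 and 781 CPM in WT activated libraries, against 597 and 532 CPM in DKO resting and 563 and 571 CPM in WT resting libraries, again without overlap (log2 fold change 0.48 ± 0.13, adjusted p = 0.00632, edgeR); with library totals alone this was 0.26 with adjusted p = 0.0882.

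Within complex I, the 7 nuclear core subunits, most of which bind the flavin or iron-sulfur clusters, were set beside the 29 accessory ones. Of the core subunits 3 were higher, with a median log2 fold change of 0.39. Of the accessory subunits 23 were higher, with a median of 0.66. All 7 core genes have longer coding sequences (636 bases in Ndufs8 to 2181 in Ndufs1) than the median of the tested subunits (435 bases). The part of coding length in this contrast was not tested. The core genes that rose were the iron-sulfur subunits Ndufv2 (0.85 ± 0.15), Ndufs8 (0.64 ± 0.14) and Ndufs7 (0.51 ± 0.16). Among those that did not pass were Ndufv1 (0.35 ± 0.16, adjusted p = 0.0974), Ndufs3 (0.39 ± 0.28, adjusted p = 0.3) and Ndufs1 (−0.01 ± 0.21, adjusted p = 0.978), all by edgeR. Ndufs1, the largest core subunit, had 73.8 and 109 CPM in DKO activated and 85.3 and 72.8 CPM in WT activated libraries, against 54.0 and 88.3 CPM in DKO resting and 101 and 90.1 CPM in WT resting libraries. Its groups overlapped. The core genes' share of the summed level of all 79 genes was 5.04 and 5.27% in DKO activated and 5.36 and 5.21% in WT activated libraries, against 5.38 and 6.01% in DKO resting and 5.65 and 5.63% in WT resting libraries. This share was lower in every activated than in every resting library, at no more than 5.36% against no less than 5.38%. The shares of the 5 whole complexes overlapped between activated and resting libraries. Of 10 groups of subunits within the complexes, the shares of 4 did not overlap and those of 6 did.

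The highest estimates within complex I were those of Ndufa12, Ndufc1 and Ndufab1. Ndufa12 (1.16 ± 0.23) and Ndufc1 (1.15 ± 0.28) rose, while Ndufab1, the mitochondrial acyl carrier protein, had 4.85 to 16.8 CPM in activated and 3.97 to 9.4 CPM in resting libraries and did not pass (log2 fold change 1.07 ± 0.59, adjusted p = 0.166, edgeR). The calls of Ndufs4, Ndufb10, Ndufs7 and Ndufa2 in complex I, Uqcrfs1 in complex III and Cox5b in complex IV were lost in 6 or more of 15 alternative fits, several of them by leaving out 1 library.

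**Figure D2:**
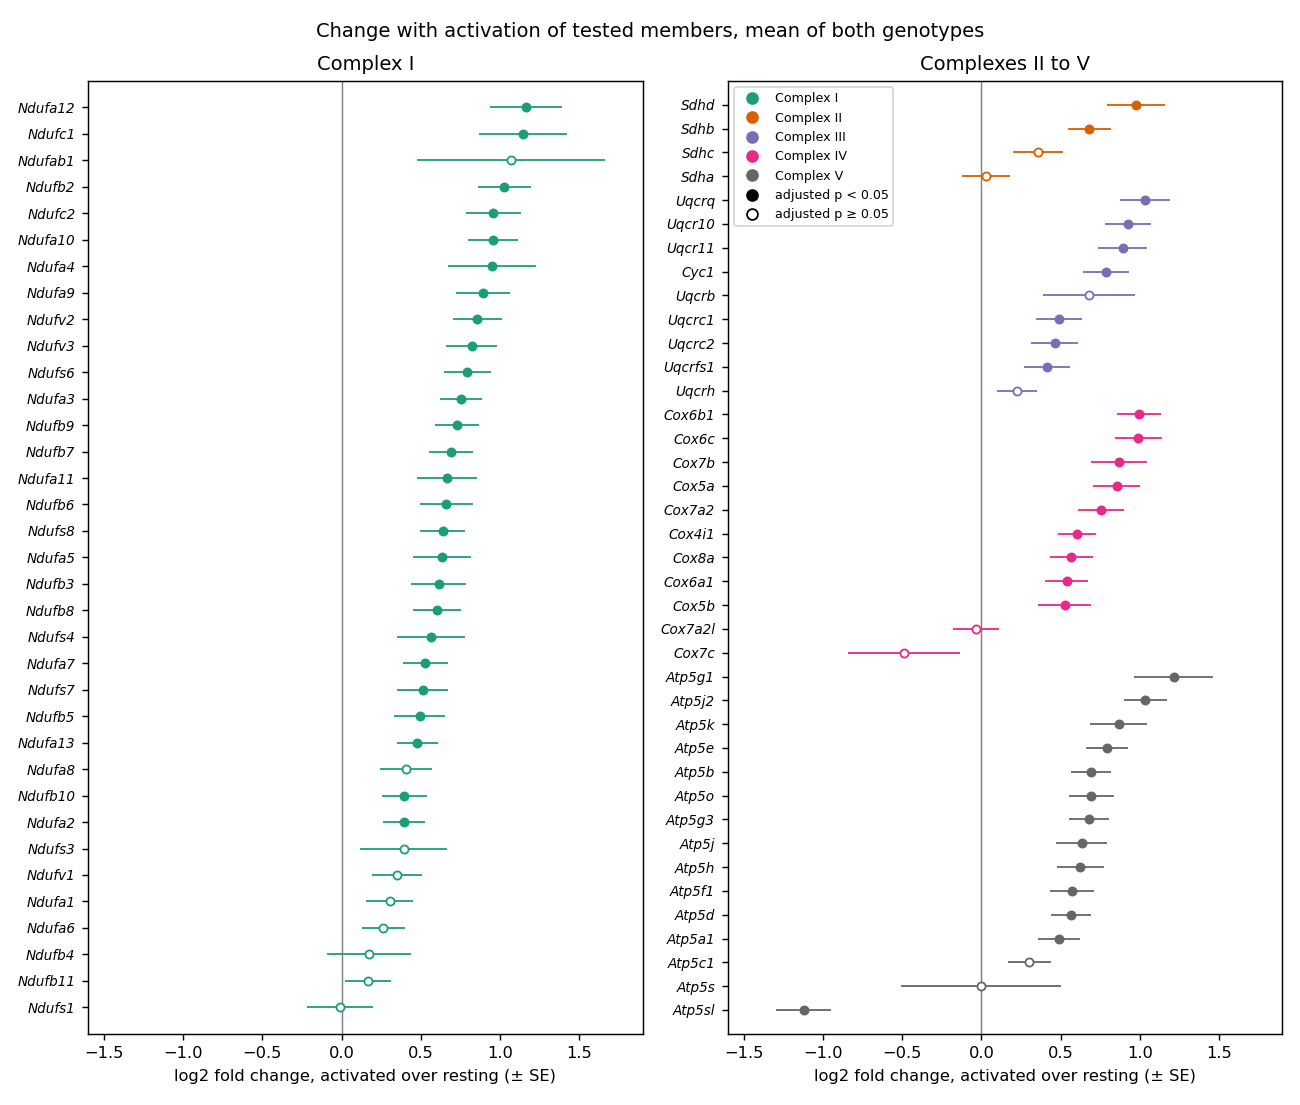
Log2 fold change with activation (horizontal axis, mean of both genotypes, ± SE) of the tested members shown, complex I on the left and complexes II to V on the right; filled points have an adjusted p under 0.05. Most points lie to the right of 0, Sdha at 0.03 and Ndufs1 at −0.01 lie near it, and Atp5sl lies at −1.12.

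Complex II, succinate dehydrogenase, is the only complex here made wholly of nuclear subunits, and 2 of its 4 genes rose, with a median log2 fold change of 0.52. Sdha, the flavin subunit that oxidises succinate, had 209 and 210.4 CPM in DKO activated and 203 and 205 CPM in WT activated libraries, against 186 and 205 CPM in DKO resting and 186 and 233 CPM in WT resting libraries. Activated and resting libraries overlapped (log2 fold change 0.03 ± 0.15, adjusted p = 0.907, edgeR). The iron-sulfur subunit Sdhb had 484 and 610.0 CPM in DKO activated and 519 and 536 CPM in WT activated libraries, against 313 and 326 CPM in DKO resting and 351 and 344 CPM in WT resting libraries. All activated libraries were above all resting ones for Sdhb (log2 fold change 0.68 ± 0.14, adjusted p = 0.000266, edgeR).

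The membrane anchors that hold the ubiquinone site are Sdhc and Sdhd. Sdhd had 191 and 168 CPM in DKO activated and 191 and 187 CPM in WT activated libraries, against 44.6 and 91.9 CPM in DKO resting and 117 and 127 CPM in WT resting libraries, with the lowest value in a DKO resting library and no overlap between activated and resting libraries (log2 fold change 0.98 ± 0.18, adjusted p = 0.000117, edgeR). Sdhc had 183 and 269.5 CPM in DKO activated and 185 and 211 CPM in WT activated libraries, against 159.8 and 153 CPM in DKO resting and 172 and 171 CPM in WT resting libraries. Its groups did not overlap, but it did not pass the test (log2 fold change 0.36 ± 0.16, adjusted p = 0.0922, edgeR), and it passed without DKO activated replicate 1 (0.49, adjusted p = 0.0245). Sdha reversed its sign in 4 alternative fits and passed in none of them. The changes of different genes were not tested against each other.

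**Figure D3:**
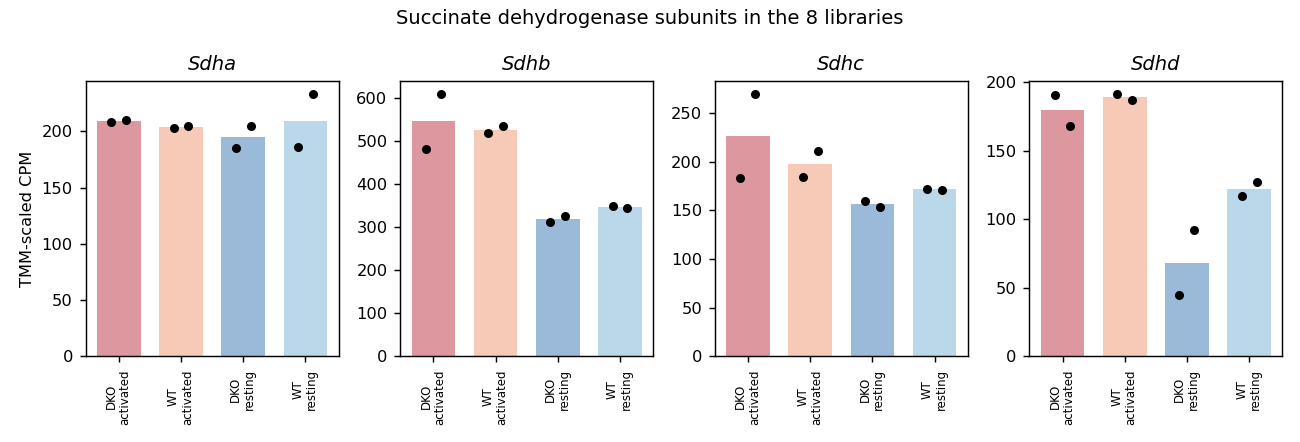
TMM-scaled CPM (vertical axis, from 0) of the 4 succinate dehydrogenase genes in the 4 groups; points are libraries and bars are means of 2 libraries. Sdha stays between 186 and 233 CPM in all libraries, while Sdhb has 484 to 610.0 CPM in activated and 313 to 351 CPM in resting libraries.

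Complex III, the cytochrome bc1 complex, had 7 of 9 genes higher and a median log2 fold change of 0.68. The most clearly changed were 3 small accessory subunits. Uqcrq had 498 and 759 CPM in DKO activated and 625 and 581 CPM in WT activated libraries, against 352 and 233 CPM in DKO resting and 263 and 363 CPM in WT resting libraries (log2 fold change 1.03 ± 0.16, adjusted p = 8.33e-06, edgeR). Uqcr10 had 576 and 659.7 CPM in DKO activated and 607 and 543 CPM in WT activated libraries, against 381 and 248 CPM in DKO resting and 296 and 339 CPM in WT resting libraries (log2 fold change 0.93 ± 0.14, adjusted p = 1.13e-05, edgeR). Uqcr11 had 240.5 and 284 CPM in DKO activated and 247 and 293 CPM in WT activated libraries, against 176 and 156 CPM in DKO resting and 126 and 121 CPM in WT resting libraries (log2 fold change 0.89 ± 0.15, adjusted p = 4.32e-05, edgeR). In all 3 every activated library was above every resting one.

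All 4 subunits grouped here as its core rose in the mean of both genotypes: cytochrome c1, Cyc1 (0.79 ± 0.14), the core proteins Uqcrc1 (0.49 ± 0.14) and Uqcrc2 (0.46 ± 0.15), and the Rieske iron-sulfur protein Uqcrfs1 (0.42 ± 0.15). Tested alone, 2 of the 4 were called higher in DKO and 1 in WT chimeras. With library totals alone Cyc1 still passed, but Uqcrc1, Uqcrc2 and Uqcrfs1 did not, and Uqcrfs1 did not pass in DESeq2 either. Uqcrh, the hinge protein and the complex III gene with the highest mean level, did not pass, with 756 and 787 CPM in DKO activated and 928 and 789 CPM in WT activated libraries, against 700.2 and 657 CPM in DKO resting and 671 and 758 CPM in WT resting libraries (log2 fold change 0.22 ± 0.13, adjusted p = 0.186, edgeR). One activated library of Uqcrh lay below the highest resting one. Uqcrb, at 18.4 to 65.9 CPM over all libraries, did not pass either (0.68 ± 0.29, adjusted p = 0.0727, edgeR).

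Complex IV, cytochrome c oxidase, had 9 of 11 tested genes higher and a median log2 fold change of 0.60; moving Ndufa4, now regarded as a complex IV subunit, into it and Cox7a2l out gave 0.75. Its nuclear subunits surround a catalytic core encoded in the mitochondria. Cox6b1, which faces the intermembrane space, had 626 and 906 CPM in DKO activated and 775 and 802 CPM in WT activated libraries, against 411 and 362 CPM in DKO resting and 386 and 399 CPM in WT resting libraries (log2 fold change 0.99 ± 0.14, adjusted p = 1.72e-06, edgeR). Cox6c, a single-span membrane subunit, had 331 and 369 CPM in DKO activated and 363 and 355 CPM in WT activated libraries, against 179 and 167 CPM in DKO resting and 159 and 212 CPM in WT resting libraries (log2 fold change 0.99 ± 0.15, adjusted p = 5.87e-06, edgeR). Neither gene's groups overlapped. Cox5a, on the matrix side, had 370.3 and 352 CPM in DKO activated and 350.1 and 267 CPM in WT activated libraries, against 159.8 and 188 CPM in DKO resting and 183 and 207 CPM in WT resting libraries (log2 fold change 0.85 ± 0.15, adjusted p = 5.36e-05, edgeR). Cox4i1 had 2016 and 2466 CPM in DKO activated and 2094 and 2316 CPM in WT activated libraries, against 1511 and 1381 CPM in DKO resting and 1413 and 1551 CPM in WT resting libraries (log2 fold change 0.60 ± 0.12, adjusted p = 0.000263, edgeR), the highest mean level of all 79 genes. Both Cox5a and Cox4i1 were higher in every activated than in every resting library.

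Several complex IV subunits have paralogs, most of them known for use in particular tissues. Cox4i2, the paralog of Cox4i1 known from lung and from low oxygen, had 4 to 8 UMIs in each activated and 0 to 1 in each resting library. In sum these were 22 UMIs in activated against 3 in resting libraries, and Cox4i2 was below the low-count filter. Each row of the deposited table reaches at least 6 UMIs in some library. Cox4i2 reached that only in DKO activated replicate 2, with 8 UMIs, so it is in the table through a group where it is high. No ratio or test is therefore drawn from these counts. Cox6a1 rose (0.54 ± 0.13, adjusted p = 0.00276, edgeR), as did Cox7a2 (0.75 ± 0.15, adjusted p = 0.000219, edgeR), while Cox6a2 and Cox7a1 were not analysed here. Cox7a2l, which helps join complexes into supercomplexes, had 272 and 293 CPM in DKO activated and 269 and 313 CPM in WT activated libraries, against 338 and 275 CPM in DKO resting and 253 and 313 CPM in WT resting libraries. Its groups overlapped (−0.03 ± 0.15, adjusted p = 0.897, edgeR), and its share of the subunits' sum averaged 0.935% in DKO activated and 0.947% in WT activated libraries, against 1.52% in DKO resting and 1.41% in WT resting libraries, without overlap. The lower share follows from an unchanged level over a rising sum and is no separate result. Cox7c had 11.8 to 24.3 CPM in activated and 20.1 to 42.3 CPM in resting libraries and did not pass (−0.49 ± 0.35, adjusted p = 0.31, edgeR).

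Complex V, ATP synthase, had 12 of 15 tested genes higher, 1 lower and a median log2 fold change of 0.63. In the catalytic head, Atp5b, the subunit that makes ATP, had 1349 and 1662 CPM in DKO activated and 1377 and 1478 CPM in WT activated libraries, against 858 and 858 CPM in DKO resting and 843 and 1070 CPM in WT resting libraries (log2 fold change 0.69 ± 0.13, adjusted p = 8.88e-05, edgeR). Atp5e, the small epsilon subunit, had 853 and 1071 CPM in DKO activated and 1048 and 1352 CPM in WT activated libraries, against 646 and 547 CPM in DKO resting and 599 and 689 CPM in WT resting libraries (log2 fold change 0.79 ± 0.13, adjusted p = 3.18e-05, edgeR). Neither overlapped between activated and resting libraries, and of the 5 head genes 4 rose, with Atp5c1 at 0.30 ± 0.14, adjusted p = 0.0961 (edgeR). All 4 genes of the peripheral stalk rose, between 0.57 ± 0.14 for Atp5f1 and 0.69 ± 0.14 for Atp5o.

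Atp5j2, the f subunit of the membrane part, had 697 and 976 CPM in DKO activated and 727 and 822 CPM in WT activated libraries, against 409 and 375 CPM in DKO resting and 354 and 432 CPM in WT resting libraries. The smallest adjusted p of the 75 tested genes was that of Atp5j2 (log2 fold change 1.04 ± 0.14, adjusted p = 9.40e-07, edgeR), and its groups did not overlap. With Atp5k and Atp5l, the e and g subunits beside it, it formed a group whose share of the subunits' sum was 3.10 and 3.46% in DKO activated and 3.22 and 3.23% in WT activated libraries, against 2.49 and 2.47% in DKO resting and 2.31 and 2.70% in WT resting libraries. Every activated library held a higher share of these 3 genes than every resting one. Atp5j2 made up most of their sum, with means of 837 of 1005 CPM in DKO activated and 775 of 988 CPM in WT activated libraries. At rest the means were 392 of 497 CPM in DKO and 393 of 504 CPM in WT libraries. The share thus largely restates the rise of Atp5j2. Atp5k rose as well (0.87 ± 0.18, adjusted p = 0.000491, edgeR). Atp5l was not tested, with 21 UMIs in activated and 25 in resting libraries.

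The c subunit, whose ring turns in the membrane, is encoded by 3 genes for the same mature protein. Atp5g3 had 929 and 1137 CPM in DKO activated and 916 and 1021 CPM in WT activated libraries, against 669.7 and 579 CPM in DKO resting and 639 and 607 CPM in WT resting libraries, and rose (0.68 ± 0.13, adjusted p = 0.000138, edgeR). Atp5g1 had 62.0 to 105 CPM in activated and 21.2 to 44.6 CPM in resting libraries and rose (1.21 ± 0.25, adjusted p = 0.000332, edgeR). Atp5g2 had 13 UMIs in activated and 13 in resting libraries and was not tested. Both tested c-ring genes thus were higher, without overlap between the groups.

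The only gene that fell carries an ATP synthase name but is now called Dmac2, a factor of complex I assembly. Atp5sl had 89.1 and 92.2 CPM in DKO activated and 67.2 and 88.5 CPM in WT activated libraries, against 244 and 202 CPM in DKO resting and 164 and 135 CPM in WT resting libraries. Every activated library lay below every resting one (log2 fold change −1.12 ± 0.18, adjusted p = 9.56e-06, edgeR), and it fell in DKO (−1.29 ± 0.25, adjusted p = 0.000486) and in WT chimeras (−0.95 ± 0.24, adjusted p = 0.00671) in the same edgeR fit. Atp5s, renamed Dmac2l, did not pass (−0.00041 ± 0.50, adjusted p = 0.999, edgeR). The share of the pair in the subunits' sum was 0.27% to 0.36% in activated and 0.67% to 1.25% in resting libraries, which restates the fall of Atp5sl over a rising sum.

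**Figure D4:**
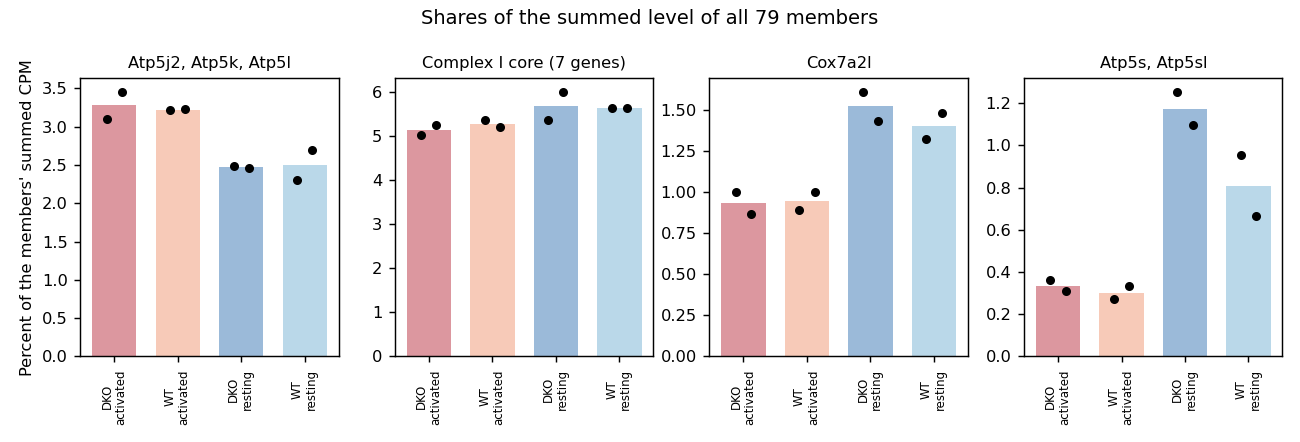
Share of the summed CPM of all 79 members (vertical axis, percent, from 0) taken by the 4 of 10 groups of members whose shares did not overlap between activated and resting libraries; points are libraries and bars are means of 2 libraries. Atp5j2, Atp5k and Atp5l take 3.10% to 3.46% in activated and 2.31% to 2.70% in resting libraries, and the shares of the 7 complex I core genes, of Cox7a2l and of Atp5s with Atp5sl are lower in every activated library.

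Each genotype was also tested alone. In DKO chimeras 34 of the 75 genes were higher and 1 lower with activation, where 9.02% and 6.33% of all tested genes were called; the median log2 fold change was 0.59. In WT chimeras 38 were higher and 1 lower, where 8.44% and 5.92% of all tested genes were called; the median was 0.60. Of the genes that rose, 26 did so in both genotypes and 46 in at least 1, Atp5sl fell in both, and 70 of 75 had the same sign in both. These counts depend on single libraries. The DKO count was 9 without DKO activated replicate 2, 13 without DKO resting replicate 2 and 20 without DKO resting replicate 1. The WT count was 10 without WT resting replicate 1, 14 without WT activated replicate 2 and 16 without WT activated replicate 1, and the fall of Atp5sl in WT was not called without WT resting replicate 1 or without WT activated replicate 1.

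By complex, the genes higher in DKO chimeras were 12 of 36 in complex I, 2 of 4 in complex II, 5 of 9 in complex III, 6 of 11 in complex IV and 9 of 15 in complex V. In WT chimeras they were 16, 1, 4, 7 and 10 of the same numbers. The difference between the genotypes' changes was tested directly, as DKO minus WT. None of the 75 genes, and no gene of 8616 (0%), passed the test of the difference (edgeR); 0 of the 75 and 397 of all had an unadjusted p under 0.05. Over the 75 genes the difference ranged from −0.91 to 0.68 on the log2 scale, with a median of −0.05 and a median SE of 0.30. DESeq2 called 0 of the 75 in the same comparison.

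The smallest p in that test belonged to Ndufa5, an accessory complex I subunit, which had 129.8 and 104 CPM in DKO activated and 167 and 139 CPM in WT activated libraries, against 86.9 and 107 CPM in DKO resting and 66.0 and 90.1 CPM in WT resting libraries. Its change was 0.27 ± 0.27 in DKO and 0.99 ± 0.25 in WT chimeras, a difference of −0.72 ± 0.37, adjusted p = 0.997 (edgeR). For Sdhd the change was 1.32 ± 0.28 in DKO and 0.63 ± 0.24 in WT chimeras, a difference of 0.68 ± 0.37, adjusted p = 0.997 (edgeR), and of 0.32 to 1.38 with 1 library left out. Uqcrc2 had 258 and 312 CPM in DKO activated and 242 and 218 CPM in WT activated libraries, against 169 and 169 CPM in DKO resting and 197 and 208 CPM in WT resting libraries, with changes of 0.74 ± 0.22 in DKO and 0.18 ± 0.20 in WT chimeras, a difference of 0.56 ± 0.30, adjusted p = 0.997 (edgeR). None of these differences passed.

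**Figure D5:**
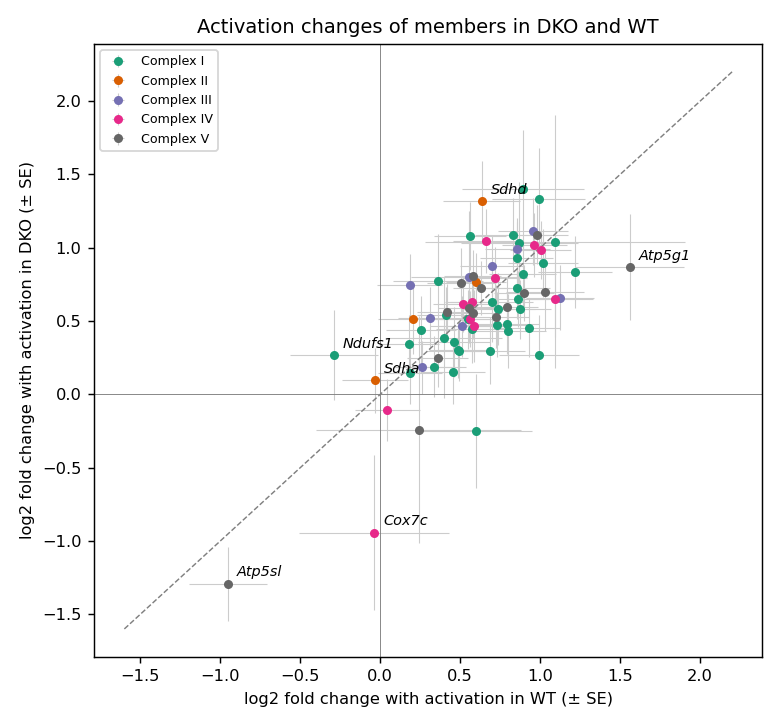
Log2 fold change with activation of the 75 tested members in DKO (vertical axis) against WT chimeras (horizontal axis), each ± SE; the dashed line marks equal changes. Most members lie above 0 on both axes, Atp5sl lies at −1.29 in DKO and −0.95 in WT, and no member passed the test of the difference between genotypes.

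Between genotypes the subunits were tested as DKO over WT. As the mean of both states none of the 75 genes was called, where 18 of all tested genes (0.209%) were; after activation none was called (0.174% of all), and at rest none (0.162% of all). At an unadjusted p under 0.05 there were 2 of the 75 genes in the mean (487 of all), 0 after activation (424 of all) and 2 at rest (448 of all), and DESeq2 called 0 of the 75 in each of the 3 comparisons. The smallest p in the mean belonged to Sdhd (−0.41 ± 0.18, adjusted p = 0.822), Atp5sl (0.38 ± 0.18, adjusted p = 0.832) and Uqcrb (−0.50 ± 0.29, adjusted p = 0.947), none of which passed in edgeR. With 1 library left out the value of Sdhd ran from −0.75 to −0.22 and that of Uqcrb from −0.82 to −0.30. At rest Sdhd was −0.75 ± 0.27 (adjusted p = 0.74) and Atp5sl 0.55 ± 0.23 (adjusted p = 0.879, edgeR). Uqcrb had 50.9 and 26.0 CPM in DKO activated against 65.9 and 40.0 CPM in WT activated libraries, and 30.5 and 18.4 CPM in DKO resting against 36.8 and 34.4 CPM in WT resting libraries. Its DKO and WT libraries overlapped after activation, and at rest both DKO libraries lay below both WT libraries.

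Other genes of the pathway were read with the same activation test. Of 16 electron carriers and related genes 5 rose (31.2%) and 1 fell: Etfb, a chain of the electron transfer flavoprotein, had 282 ± 46.0 CPM in DKO activated and 289 ± 1.20 CPM in WT activated libraries, against 131 ± 26.0 CPM in DKO resting and 139 ± 13.5 CPM in WT resting libraries (SD, n = 2 each) and a log2 fold change of 1.06 ± 0.16 (edgeR adjusted p = 4.55e-06). Coq7, an enzyme of ubiquinone synthesis (1.30 ± 0.32, adjusted p = 0.00194), and Cycs, the cytochrome c gene (1.57 ± 0.44, adjusted p = 0.00455), rose too, and the inhibitor Atpif1 did not pass (0.30 ± 0.15, adjusted p = 0.143, all edgeR). Gpd2, the mitochondrial glycerol phosphate dehydrogenase, fell (−0.67 ± 0.24, edgeR adjusted p = 0.0323).

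Assembly factors were read beside the 16.3% of all tested genes called higher. For complex I, 2 of 13 rose (15.4%, near that share), Ndufaf6 (1.56 ± 0.53) and Ndufaf2 (0.72 ± 0.26). For complex IV 9 of 21 rose (42.9%), for complex II 1 of 3 (Sdhaf1 0.78 ± 0.18) and for complex III 1 of 4. Tested in each genotype alone, 2 of the 21 complex IV factors were called higher in DKO and 2 in WT chimeras. Over all tested genes 9.02% and 8.44% were called higher in these comparisons. Uqcc2, the complex III factor, had 346 ± 102 CPM in DKO activated and 386 ± 28.7 CPM in WT activated libraries, against 136 ± 59.5 CPM in DKO resting and 129 ± 24.0 CPM in WT resting libraries (SD, n = 2 each) (log2 fold change 1.49 ± 0.18, edgeR adjusted p = 1.53e-07). The complex IV factors with the smallest p were Cox19 (1.29 ± 0.27), Coa3 (0.67 ± 0.18) and the copper chaperone Cox17 (0.52 ± 0.14). The complex V list mixes assembly factors with Usmg5 and 2010107E04Rik, which are now regarded as small subunits of the enzyme, and none of its 4 tested genes was called; its most abundant gene, 2010107E04Rik, was at 0.52 ± 0.24 (edgeR adjusted p = 0.11).

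Of 22 genes of the citric acid cycle and pyruvate entry, 3 rose and none fell (13.6% higher, near the 16.3% of all tested genes): Suclg1 (0.74 ± 0.17), Idh3g (0.48 ± 0.14) and Mdh2 (0.44 ± 0.14). The median of the list was 0.32, against −0.01 over all tested genes. Of 14 carriers and outer membrane genes 7 rose (50%) and none fell, led by prohibitin Phb2 (0.86 ± 0.13), the ADP/ATP carrier Slc25a5 (0.83 ± 0.13) and the import pore Tomm40 (0.70 ± 0.16). Of 14 regulators of mitochondrial biogenesis 1 rose and 2 fell (7.14% and 14.3%, where 16.3% and 13.4% of all tested genes did), with a median of −0.16. Gabpb2, a chain of GABP, fell (−0.88 ± 0.20, edgeR adjusted p = 0.000999), with 47.4 ± 6.80 CPM in DKO activated and 74.9 ± 9.03 CPM in WT activated libraries, against 111 ± 10.1 CPM in DKO resting and 112 ± 20.2 CPM in WT resting libraries (SD, n = 2 each). Esrra, a nuclear receptor that acts on respiratory genes, fell (−0.65 ± 0.20, adjusted p = 0.0147), and Rxra rose (0.81 ± 0.29, adjusted p = 0.0327, both edgeR). Nrf1 (−0.39 ± 0.29, adjusted p = 0.327), Gabpa (−0.41 ± 0.26, adjusted p = 0.246) and Yy1 (−0.29 ± 0.21, adjusted p = 0.332), whose motifs are given above, did not pass in edgeR, nor did Tfam (−0.26 ± 0.16, adjusted p = 0.229). Over all these lists 29 genes rose and 3 fell, where 16.3% and 13.4% of all tested genes were called higher and lower. The first count was 15 without WT activated replicate 1, 19 without WT activated replicate 2 and 16 without WT resting replicate 1, and the second was 1 without DKO activated replicate 2, WT activated replicate 2 or WT resting replicate 2.

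The non-member genes whose pattern over the 8 libraries was most like the mean of the subunits were Psmb6 (Pearson r = 0.994), Arpp19 (0.989), Cct6a (0.988), Chchd2 (0.988) and Romo1 (0.987). These values describe 8 libraries that share the activated and resting groups and a common scaling. Among the subunits themselves, Atp5sl had the lowest correlation with that mean, at −0.88, followed by Cox7c at −0.57, Cox7a2l at 0.05 and Ndufs1 at 0.11.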

How the data were processed

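Bulk MARS-seq RNA of 8 DC libraries was deposited by the authors as a single table. Per the file headers, it holds raw UMI counts per gene, which entered every test here. Its other columns (normalized counts as a signal, mean levels, log2 fold changes with their errors, test statistics as a score, and p-values) were made by the authors and were not used. The submitters' processing notes name build mm10 and, as tools, HTSeq, TopHat2, DESeq2, cutadapt 1.8.3 and bcl2fastq 2.17.1.14. Annotation, strand setting and UMI collapsing: not given in the sources used here. MARS-seq counts 3′ ends, so levels were not divided by gene length, and the table was filtered before deposit (each row reaches at least 6 UMIs in some library).

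Counts were tested with edgeR 4.0.16 in R 4.3.3 (limma 3.58.1): TMM scaling, filterByExpr by group, 1 coefficient per group with 4 residual degrees of freedom, quasi-likelihood F tests, SEs from the fitted weights and quasi-likelihood dispersion, and Benjamini-Hochberg adjustment over 8616 genes, called at adjusted p under 0.05. Alternatives were DESeq2 1.42.0, other scalings, filters and fits, and leaving out each library. The fit was also run on simulated counts drawn with its own dispersions, which cannot show whether its model suits these libraries. Libraries of a group differed by more than sampling noise (chi-square per degree of freedom 1.99 to 3.40 over the members), so each counted as 1. The members and lists were chosen with earlier results of these data known. Values were printed for the 3 members of each complex with the smallest p (all of complex II), members that fell, the most abundant member of each complex, paralogs, and the 3 smallest p between genotypes; other members were named after their values were seen. Of each pathway list up to 3 called genes with the smallest p were named; Gpd2, Atpif1, Nrf1, Gabpa, Yy1 and Tfam were added after their values were seen. Symbols, 3′ overlaps and transcript copies came from GENCODE M21 and RefSeq tables; 76 members matched RefSeq by symbol and 3 by synonym. Complex names follow the symbols.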

Additional observations from a re-analysis of the deposited data

How the results depend on the processing

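No paired analysis was possible because the labels give no replicate numbers, and the numbers used here only name libraries. Over 15 alternative fits of the mean activation change, 41 to 57 subunits were higher (56 as reported) and 1 lower; 40 of 57 called genes were called in every fit and 0 changed sign. Leaving out 1 library gave 9 to 37 genes higher in DKO (34 as reported), 10 to 43 higher and 0 to 1 lower in WT (38 and 1), a complex III median of 0.47 to 0.76 (0.68), and 15 to 25 other pathway genes higher and 1 to 4 lower (29 and 3). Library totals alone gave 21 genes higher in DKO, 20 in WT, a WT summed fold of 1.30 (1.53), medians of 0.41, 0.30, 0.47, 0.39 and 0.42 for complexes I, II, III, IV and V, and 12 pathway genes higher and 5 lower. DESeq2 called 18 pathway genes higher. Fitting only the 4 libraries compared gave 22 in DKO. Leaving out both libraries of lowest depth, chosen after seeing the data, gave 9 in DKO and 1 pathway gene lower. Moving members by current function, also chosen then, gave a complex IV median of 0.75 (0.60). The change of Sdha reversed to −0.18 with library totals, −0.020 without DKO resting replicate 1, −0.068 without WT resting replicate 1 and −0.015 without both shallow libraries, and was at most 0.094 with 1 library left out. The causes of these shifts were not tested, and each fit that leaves libraries out also has fewer samples. The fit without both shallow libraries, DKO resting replicate 1 and DKO activated replicate 2, keeps only 1 library in each DKO group. No subunit was called between genotypes or in the test of the difference under any alternative run.

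With 2 libraries a group, depth and replicate number limit what could be seen: 1 UMI was worth 0.695 to 2.36 CPM, and the SE of the genotype difference in change was 0.24 to 1.19 on the log2 scale. Pseudogene copies at least 95% identical over 100 bases of the 3′ end exist for 9 members (Atp5g2, Atp5h, Atp5k, Atp5l, Atp5o, Cox6a1, Cox7c, Ndufb11 and Ndufs3), whose counts are uncertain. For 7 (Cox5a, Cox6c, Ndufa2, Ndufa3, Ndufb2, Ndufb6 and Uqcrc2) the last 500 bases overlap an exon of a gene on the other strand.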

Other observations

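The 75 tested subunits have short coding sequences, with a median of 435 bases. The 37 shorter ones had a median log2 fold change with activation of 0.68, with 30 called higher, and the 38 others had a median of 0.57, with 26 called higher. Over all tested genes with a coding length, the 559 shorter than 435 bases had a median of 0.43 and the 7602 longer ones a median of −0.04. Across the 75 genes Spearman's rho between coding length and log2 fold change was −0.33, and across 8161 tested genes it was −0.30. Genes share libraries and are not independent replicates, so no p is given. Between mean level and log2 fold change, rho across the 75 genes was −0.01.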
